A study of Homo sapiens with 8 samples.

Results

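The 5 exosome libraries of the MEC-1 line were described on their own, as the RNA cargo of 1 kind of vesicle preparation. They were taken by their labels, as the samples made from exosomes in culture supernatant, and are 5 of the 8 samples in the series. The other 3 are small RNA libraries of the parental cells and were not used here. MEC-1 is an established B-cell line from chronic lymphocytic leukaemia, a slow cancer of mature B cells, and no treatment or genotype separates the libraries. The cells grew in bioreactors with a cell compartment and a medium compartment, in DMEM with 10% fetal calf serum. Serum vesicles had been spun out of the medium except in the upper medium compartment. Vesicles were pelleted at 100000 g with a 20% iodixanol cushion against protein aggregates. RNA below 200 nt was extracted, 30 ng went into each library, and 15 PCR cycles were run without molecular identifiers. The series' text pairs 3 of the 5 exosome samples with cell samples without naming them, and no label says that the 5 came from separate cultures, so the spread reported here is that between these preparations, which may in part be technical. They are numbered exosome 1 to exosome 5.

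Exosomes are small vesicles that cells release after multivesicular bodies fuse with the plasma membrane, and they carry protein and mostly short or broken RNA. Y RNAs are small RNAs bound by Ro60, VTRNA1 vault RNAs belong to the vault particle, and 7SL is the RNA of the signal recognition particle. C/D and H/ACA small nucleolar RNAs guide methylation and pseudouridylation of ribosomal RNA, scaRNAs guide such changes in spliceosomal snRNAs in Cajal bodies, and miRNAs guide Argonaute proteins to messenger RNAs.

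The libraries held 26973393, 32318716, 32436286, 23353820 and 27316077 counted reads. Between 1006 and 1195 of 2709 features had at least 10 reads in a library, and 3 reads, the limit that a count of 0 allows, came to between 0.0925 and 0.128 reads per 1000000 counted reads (CPM). That limit covers counting error only. Across 1136 features the log2(CPM + 1) values of any 2 libraries correlated with r between 0.929 and 0.986, highest for exosome 2 and 3. Features are not independent, so r is a description. No pair of libraries agreed within counting noise (chi-square per degree of freedom of at least 1132), so none was taken as a copy of another. This does not show that they came from separate cultures. Exosome 5 stood apart in depth outside rRNA, with 7547048 reads against 13682379 to 17839011 in the others.

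Ribosomal RNA, tRNA-length features and Y RNAs made up most of the reads in every preparation. miRNAs were the fourth class by mean share, but with near-identical features counted once they came to 8.26%, above tRNA-length features (4.44%). rRNA took 49.3, 46.5, 45.0, 37.7 and 72.4% of counted reads in exosome 1 to 5 (mean 50.2% ± 13.1, SD, n = 5). Features of tRNA length, numbered and not named in the files, took 15.9, 24.0, 16.9, 25.7 and 8.41% (18.2% ± 6.93). Only exosome 5 lay outside a range of 37.7 to 49.3% for rRNA, and it was the lowest for tRNA-length features. Y RNAs took between 15.3 and 17.1% in exosome 1 to 4 and 10.2% in exosome 5 (15.0% ± 2.79). The share of miRNAs was 10.1, 3.10, 5.78, 11.5 and 4.99% (7.10% ± 3.56), so exosome 1 and 4 carried a larger miRNA share than the other preparations.

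Mitochondrial RNAs took 1.27, 4.78, 8.76, 2.77 and 1.04% of the reads (3.73% ± 3.19), with exosome 3 and 2 on top. Without exosome 3 the mean was 2.47%. The range of 8.39-fold was the widest of the 14 classes in shares of all reads, but without rRNA vault RNA (10.6-fold) and other non-coding genes (8.47-fold) ranged wider than mitochondrial RNA (6.34-fold). C/D snoRNAs took 1.80, 2.11, 3.19, 1.17 and 0.689% (1.79% ± 0.955). Host genes, meaning genes over 200 nt that hold miRNAs or snoRNAs in their span, took 2.93% ± 1.05. Vault RNAs followed with 0.632, 0.130, 0.355, 0.551 and 0.714%, lowest in exosome 2 and highest in exosome 5. Small nuclear RNAs took 0.316% ± 0.107 and 7SL RNA 0.107% ± 0.0388. H/ACA snoRNAs, scaRNAs, 7SK RNA and other non-coding genes each took at most 0.149% in any library.

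**Figure D1:**
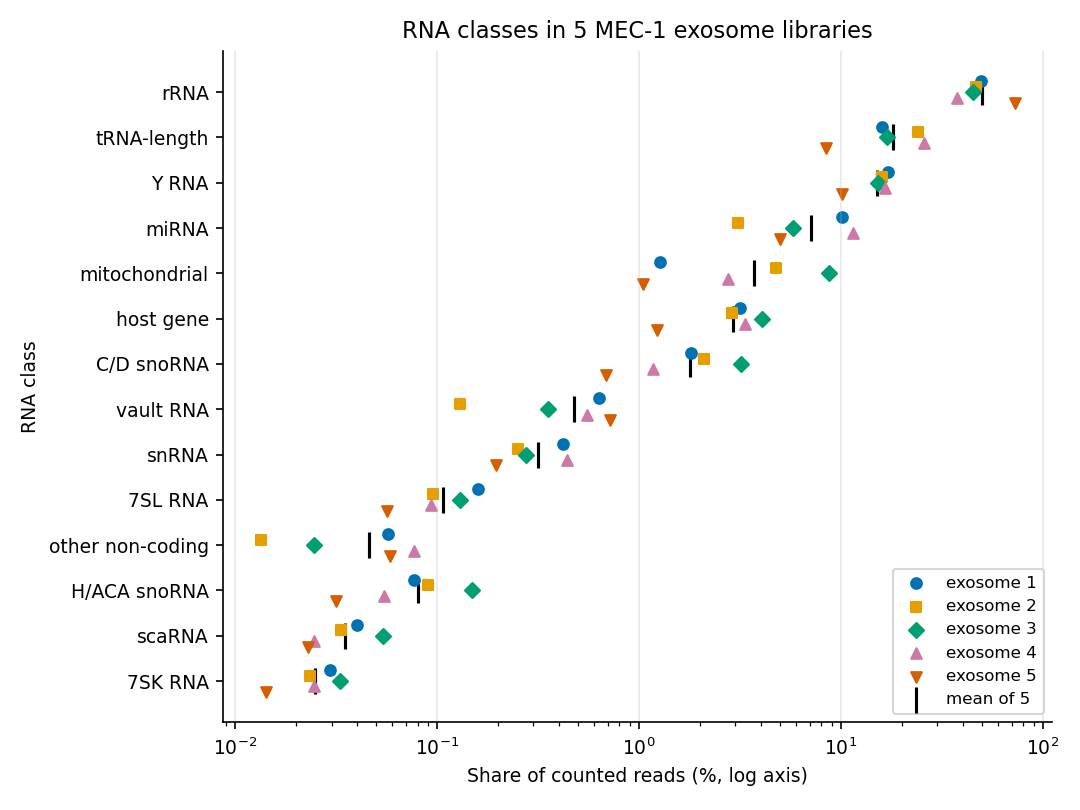
Share of counted reads (%, log axis) of each RNA class in the 5 exosome libraries, with the mean as a black bar. rRNA lies highest in exosome 5 (72.4%), vault RNA lowest in exosome 2 (0.130%), and mitochondrial RNA highest in exosome 3 (8.76%).

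A share falls when another class rises, so the shares were also taken without rRNA. Y RNAs then came to 33.6, 29.9, 27.8, 26.6 and 36.8% and tRNA-length features to 31.4, 44.9, 30.7, 41.2 and 30.4%. On this scale exosome 5 no longer stood below the rest for Y RNA but was the highest. The miRNA share became 19.9, 5.80, 10.5, 18.5 and 18.1%, which put exosome 5 beside exosome 1 and 4 and left exosome 2 and 3 below. Vault RNA became 1.25, 0.244, 0.646, 0.885 and 2.58%, again lowest in exosome 2 and highest in exosome 5. Fewer vesicles and less of an RNA per vesicle cannot be told apart in such libraries.

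Of the 2709 features, 844 (31.2%) had at least 10 reads in all 5 preparations, and these held at least 99.9% of the reads of each library. A further 559 reached 10 reads in 1 to 4 libraries and 1306 in none, of which 701 had no read anywhere. All 25 mitochondrial features, 4 Y RNAs, 4 vault RNAs, 3 7SL features and 7SK RNA were in the shared set. It held 311 of 625 tRNA-length features, 133 of 242 C/D snoRNAs, 49 of 100 H/ACA snoRNAs, 24 of 41 snRNAs and 15 of 20 scaRNAs. Only 207 of 1358 miRNA genes were found in all 5, yet these carried at least 99.5% of the miRNA reads of each library. Other non-coding genes were the exception, with 36 of 227 features in all 5 and as little as 73.7% of the class's reads in them.

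**Figure D2:**
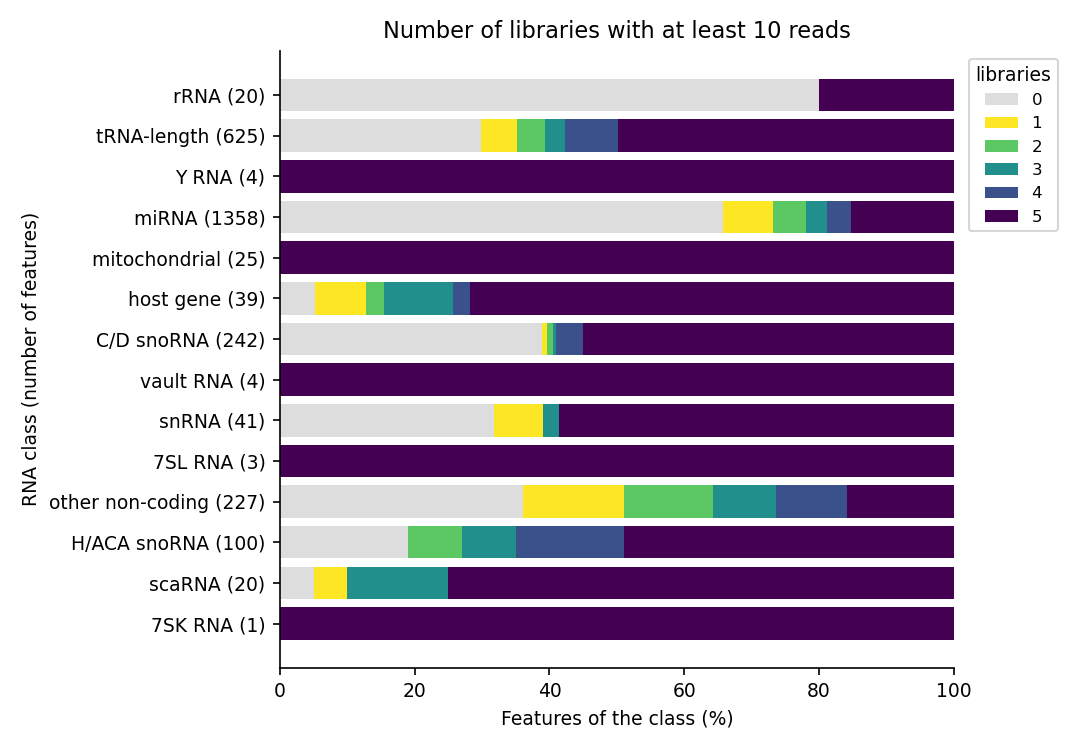
Share of the features of each class (%, number of features in brackets) that reached at least 10 reads in 0, 1, 2, 3, 4 or 5 exosome libraries. Y, vault, mitochondrial, 7SL and 7SK RNAs are complete in all 5, while most miRNA genes (893 of 1358) reached 10 reads in none.

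Private cargo was scarce: 15 features had at least 10 reads in 1 library and no read in the other 4. Exosome 1 held 3 of them, exosome 4 held 6 and exosome 5 held 6. The most abundant were MIR609 in exosome 4 and MIR4782 in exosome 5, with 26 reads each. MIR548AW had 14 reads in exosome 1, RP11-104D21.3 had 19 in exosome 4 and the tRNA-length feature 7591 had 23 in exosome 5.

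In the following, levels are in CPM, and the order within a class is by CPM per kilobase of feature (per-length level), since long features can collect more reads. A neighbour in that order counts as separate only where it was above the next one in all 5 libraries.

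Among rRNAs, 28S RNA (RNA28S5, on the unplaced contig GL000220.1 of GRCh37) had the most reads, with 34.1, 26.7, 23.3, 25.8 and 51.4% of all reads. It was the most abundant feature of every library, and in exosome 5 this 1 feature made up over 50% of the reads. Per length the 5.8S feature was first, with 430012 CPM per kilobase against 63635 for 28S and 25421 for 18S RNA, in that order in all 5 libraries. The 5.8S feature joins 2 separate parts, between positions 112025 and 156149 of the contig, with a summed length of 306 nt. The 28S and 18S features have 1 part each. 18S RNA had 36300, 85254, 68328, 18986 and 28689 CPM, highest in exosome 2 and 3. The reads of 28S over those of 18S RNA came to 9.41, 3.13, 3.40, 13.6 and 17.9, so exosome 2 and 3 held far more 18S reads relative to 28S than the other 3. 5S RNA was nearly absent at 13.3 CPM ± 9.27, and 16 of the 20 rRNA features had no read.

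The tRNA-length features could not be named, since the files give them only numbers. Many had counts that differed by no more than 2% or 5 reads in every library, and 98 of them fell into such near-identical groups. Whether reads that match several copies were counted at each is not given in the sources used here. Counting each group once lowered the class from 18.2% to 4.44% ± 2.29 of the reads. The leading group had 8 features of 72 nt, 1 of them at chr6:126101393-126101464, with 15911, 24312, 15696, 14986 and 8768 CPM per feature. It led the class in all 5 libraries. The second group had 5 features of 71 nt, 1 of them at chr1:161413094-161413164, with 1027, 1899, 1712, 13520 and 383 CPM. Exosome 4 alone was high there, at 7 times or more the level of any other library. The ratio of the first to the second group was therefore 15.5, 12.8, 9.17, 1.11 and 22.9.

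Y RNAs were the most even cargo. RNY4 had 117226, 114701, 114833, 131438 and 76049 CPM, and RNY1 had 39872, 31863, 25180, 23644 and 19555 CPM. RNY4 thus made up 73.9% of Y RNA reads on average and RNY1 18.7%, and RNY4 was above RNY1 and RNY1 above RNY5 per length in all 5 libraries. RNY5 (5845 CPM ± 1238) and RNY3 (5423 CPM ± 2141) were not separate, since RNY5 led in 4 of 5. The ratio of RNY4 to RNY3 was 15.5 to 18.5 in exosome 1 to 3 but 29.5 in exosome 4 and 35.6 in exosome 5. The 4 genes lie together on chromosome 7, at positions 148638580 (RNY5) to 148684340 (RNY1). The 2 most abundant are shown because they begin with the same 11 bases (capitals). They come from GENCODE release 29 transcripts with the symbol and length of the feature, and the positions are those of the files on GRCh37.
RNY4, chr7:148660407-148660502, plus strand: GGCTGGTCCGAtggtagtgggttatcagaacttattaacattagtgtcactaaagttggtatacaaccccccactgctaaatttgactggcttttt
RNY1, chr7:148684228-148684340, minus strand: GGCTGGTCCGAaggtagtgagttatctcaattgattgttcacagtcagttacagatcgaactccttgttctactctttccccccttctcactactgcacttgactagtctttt

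Vault RNAs varied more than Y RNAs, and the 4 genes did not vary alike. VTRNA1-1 had 4105, 522, 990, 3164 and 5457 CPM, low in exosome 2 and 3. VTRNA1-3 had 406, 34.7, 47.8, 176 and 717 CPM, with the same order of libraries. VTRNA1-2 had 152, 6.37, 71.8, 218 and 209 CPM. VTRNA2-1, at chr5:135416160-135416286 and also known as nc886, had 1660, 739, 2443, 1956 and 757 CPM and was highest where VTRNA1-1 was low, in exosome 3. The summed VTRNA1 reads over those of VTRNA2-1 were 2.81, 0.762, 0.454, 1.82 and 8.43. Per length VTRNA1-1 was above VTRNA2-1 in only 3 of 5 libraries, so neither led the class, which was put together by symbol. Among the 3 VTRNA1 RNAs, VTRNA1-1 led by reads in all 5 libraries. It had 7.61 to 20.7 times the reads of VTRNA1-3 and 13.8 to 82.0 times those of VTRNA1-2. The 3 VTRNA1 RNAs are shown because they share their first 29 bases (capitals).
VTRNA1-1, chr5:140090860-140090958, plus strand: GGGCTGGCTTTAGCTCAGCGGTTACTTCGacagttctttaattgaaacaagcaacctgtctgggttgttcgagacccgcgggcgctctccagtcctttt
VTRNA1-2, chr5:140098510-140098598, plus strand: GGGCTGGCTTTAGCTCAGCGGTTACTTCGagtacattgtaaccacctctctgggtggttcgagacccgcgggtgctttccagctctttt
VTRNA1-3, chr5:140105743-140105831, plus strand: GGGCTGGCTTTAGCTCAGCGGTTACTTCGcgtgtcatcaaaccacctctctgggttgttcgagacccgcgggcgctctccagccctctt

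The miRNA cargo was led by MIR148A and MIR21. MIR148A (chr7:25989539-25989606) had 33234, 4991, 10574, 56870 and 28151 CPM, a range of 11.4-fold from exosome 2 to exosome 4. MIR21 (chr17:57918627-57918698), widely expressed and raised in many cancers, had 21636, 6568, 13828, 18174 and 5035 CPM. MIR148A was above MIR21 per length in 3 of 5 libraries, and the ratio of their reads was 1.54, 0.760, 0.765, 3.13 and 5.59, so the 2 leaders were not separate. MIR378A followed with 6409, 933, 1483, 3419 and 2539 CPM. MIRLET7F2 had 4448, 1708, 2840, 3328 and 1180 CPM, and its ratio to MIR21 moved little, with MIR21 between 3.84 and 5.46 times as high.

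Below these came MIRLET7F1, MIRLET7G, MIR25, MIRLET7I, MIR92A2, MIR30D, MIR27A and MIR146B, whose means ran from 2432 down to 781 CPM. Of the 15 consecutive steps among the leading 16 miRNAs by per-length level, only MIR21 over MIR378A and MIRLET7F2 over MIRLET7F1 held in all 5 libraries. The membership was steadier than the order: 15 genes were among the 20 with the most reads in every library. The leading 15 genes, with near-identical ones counted once, held 85.9, 74.3, 78.7, 86.5 and 88.2% of the miRNA reads, lowest in exosome 2.

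**Figure D3:**
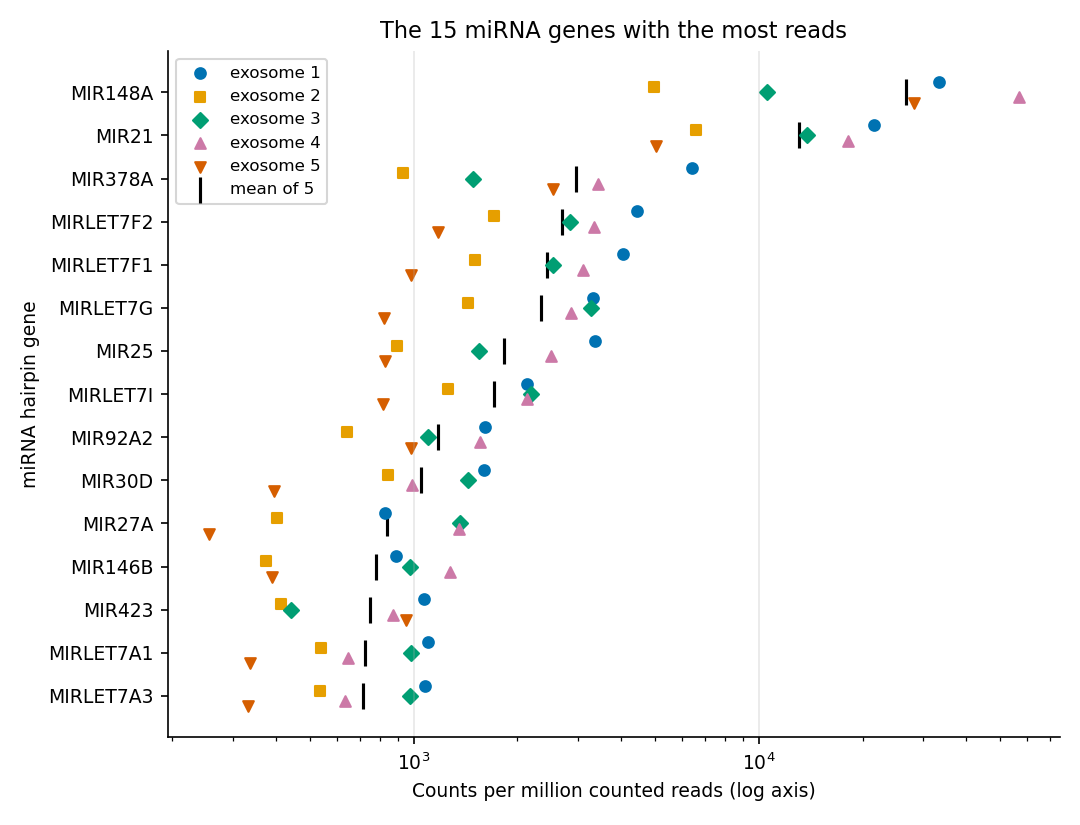
Level (CPM, log axis) of the 15 miRNA genes with the most reads in the 5 exosome libraries, with the mean as a black bar. MIR148A spans 4991 to 56870 CPM, and exosome 1 lies at or near the top for most genes while exosome 2 and 5 mostly lie low.

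The files count reads per hairpin gene, so the arms cannot be told apart. The main arms of the leading genes are given from RefSeq, which matched 1217 of the 1358 miRNA genes, with bases 2 to 8 (the seed, which sets target choice) in capitals. They are shown because seed families concentrate the cargo further than single genes do.
hsa-miR-148a-3p: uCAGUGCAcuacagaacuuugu
hsa-miR-21-5p: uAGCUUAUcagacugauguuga
hsa-miR-378a-3p: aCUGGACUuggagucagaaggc
hsa-let-7f-5p: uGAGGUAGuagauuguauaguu
hsa-let-7g-5p: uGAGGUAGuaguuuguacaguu
hsa-let-7i-5p: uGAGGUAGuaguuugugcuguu
hsa-miR-25-3p: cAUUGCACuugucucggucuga
hsa-miR-92a-3p: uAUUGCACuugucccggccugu
Hairpins with an arm of the miR-148a seed (MIR148A, MIR152 and MIR148B) held 33.1, 16.3, 18.4, 49.5 and 56.6% of miRNA reads, nearly all of it MIR148A. Those of the miR-21 seed held 21.4, 21.2, 23.9, 15.8 and 10.1%. The 13 hairpins of the let-7 seed, 11 of them found in all 5 libraries, held 17.6, 25.5, 25.6, 12.1 and 10.1%, above the miR-148a seed in exosome 2 and 3 only. MIRLET7A1, MIRLET7A2 and MIRLET7A3 share the arm let-7a-5p, and MIRLET7F1 and MIRLET7F2 share let-7f-5p. Whether such reads were counted at each hairpin is not given. If so, let-7 may not lie above the miR-148a seed in exosome 3, where MIRLET7F1, MIRLET7A3 and MIRLET7A2 held 4.38, 1.69 and 1.67%. The seed shared by miR-25 and miR-92a held 4.43% ± 0.761, the steadiest of these 4 families.

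Single miRNAs differed in how their share of the miRNA reads moved. Of 68 genes with a mean of at least 1000 reads, MIR106B was the steadiest, with 0.343, 0.407, 0.310, 0.327 and 0.298% of miRNA reads. MIR99A was the least steady, with 0.115, 1.46, 1.73, 0.914 and 0.146%. MIRLET7C, its neighbour at chr21:17912143-17912236 (MIR99A is at chr21:17911409-17911489), took 0.0698, 0.313, 0.441, 0.0864 and 0.0646%. Both were high in exosome 2 and 3, and MIR99A also in exosome 4. MIR99A and MIRLET7C were chosen after their values were seen.

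Of the mitochondrial RNAs, the tRNA MT-TE (at 14674 to 14742 of the mitochondrial chromosome, minus strand) led per length, with 3618, 11630, 38420, 8802 and 2023 CPM. Exosome 3 was high by more than 3 times over the next library. MT-TY (871, 1617, 6282, 4450 and 465 CPM) and MT-TF (1194, 2831, 6781, 2487 and 1195 CPM) came next and were not separate. MT-RNR2, the large mitochondrial rRNA, was second by reads with 2555, 13534, 15585, 5321 and 2955 CPM but ninth by per-length level. MT-RNR1, the small one, had 1998, 12424, 10131, 3081 and 2713 CPM. Both rRNAs were high in exosome 2 and 3, whereas the summed tRNAs were high in exosome 3 alone, so that tRNA reads over rRNA reads were 1.79, 0.834, 2.39, 2.28 and 0.838. The 8 tRNAs of the minus strand held 68.8% ± 7.89 of mitochondrial tRNA reads, most of it MT-TE. The highest library was exosome 3 for 23 of the 25 mitochondrial features.

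The reads of C/D snoRNAs were spread over many genes. Between 10 and 11 C/D snoRNAs were needed for 50% of the class's reads, against 1 to 5 features for miRNAs. SNORD2 (chr3:186502585-186502653) had 1674, 2091, 3388, 1226 and 575 CPM, SNORD63 1404, 1911, 2626, 895 and 525 CPM, and SNORD18A 1475, 1631, 2209, 833 and 527 CPM. Per length they kept this order, ahead of all other C/D snoRNAs, in all 5 libraries. SNORD104 (661 CPM ± 237) and SNORD55 (737 CPM ± 404) followed and were not separate. SNORA18 led the H/ACA class with 152, 240, 400, 104 and 38.0 CPM, and SNORA34 followed with 73.0, 63.1, 245, 78.8 and 28.3 CPM. SCARNA22 led the scaRNAs with 160, 99.1, 211, 83.4 and 98.1 CPM. Of 110 C/D snoRNAs of imprinted clusters on the list used, 18 were found in all 5 libraries and 46 had no read. The most abundant was SNORD116-8 with 23.7, 31.1, 77.5, 17.9 and 3.04 CPM.

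Among the abundant C/D snoRNAs that hold both box motifs, 2 are shown with the motifs in capitals, since these boxes bind the snoRNP proteins. SNORD2 and SNORD63, the leaders of the class, had no matched sequence with both motifs. SNORD55, which also holds both, is not shown. The C box was searched as TGATGA in the first 15 bases and the D box as CTGA in the last 12, on the RNA strand only.
SNORD18A, chr15:66795581-66795652, minus strand: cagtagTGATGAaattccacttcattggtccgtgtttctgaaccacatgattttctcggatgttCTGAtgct
SNORD104, chr17:62223443-62223512, plus strand: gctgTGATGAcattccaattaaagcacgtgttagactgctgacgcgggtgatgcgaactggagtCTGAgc
Of 227 C/D snoRNAs with a sequence, 149 (65.6%) held both. The share was 59.3% among the 123 found in all 5 libraries and 73.1% among the other 104. As a description, the shared cargo was not richer in full box pairs. The imprinted clusters of numbered copies weigh on the other set, since only 18 of their 110 members were found in all 5 libraries. The 2 shares therefore compare unlike kinds of C/D snoRNA.

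Host genes were counted as long features, while the RNA extracted was below 200 nt. Read lengths were not analysed here. MIR155HG, the gene of the B-cell miRNA miR-155, had 9338, 7235, 10848, 19049 and 4302 CPM and led per length in all 5. MIR17HG, the gene of the miR-17-92 cluster, had 2787, 1203, 1866, 3107 and 1238 CPM. MIR155 and the 6 miRNAs of the MIR17HG span have no feature of their own here, and whether their reads make up the host's count was not checked. GAS5 had 6538, 5785, 7390, 2848 and 2293 CPM and C17orf76-AS1 6099, 5644, 7377, 2315 and 1922 CPM, a ratio between 1.00 and 1.23. Of the 11 small RNAs within GAS5, 1 (SNORD78) has its own feature, and of the 9 within SNHG1, none. SNHG5 (3785 CPM ± 2049) and SNHG1 (3090 CPM ± 1669) were highest in exosome 3 and lowest in exosome 5 too.

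Among small nuclear RNAs, the U5 variant RNU5E-1 had the highest mean, with 1659, 703, 546, 693 and 442 CPM, high in exosome 1 alone. The U7 RNA of histone mRNA processing, RNU7-1, had 492, 125, 92.7, 533 and 322 CPM, low in exosome 2 and 3. Per length RNU5E-1 was above RNU7-1 in only 3 of 5 libraries, so the 2 were not separate. RNU11 of the minor spliceosome had 358, 185, 300, 935 and 378 CPM, high in exosome 4 alone. RNU12 was second by mean reads (544 CPM ± 263), first in exosome 4, and sixth per length, as its feature spans 664 nt. The 5 U1 features were near-identical, at about 102 CPM each.

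RN7SL1 (838, 484, 649, 479 and 321 CPM) was above RN7SL2 (665, 404, 568, 388 and 209 CPM) in all 5 libraries, and RN7SL3 stood at 65.5 CPM ± 17.9. 7SK RNA had 295, 234, 332, 244 and 142 CPM. Their features of 297 to 331 nt exceed the 200 nt of the extraction. Telomerase RNA (TERC) had 3.57 CPM ± 1.42, and MALAT1, a long nuclear RNA, 71.7 CPM ± 32.2.

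Features with a high level differed widely in their spread over the preparations. Over 669 features with a mean of at least 100 reads, the median coefficient of variation (CV, SD over mean) of CPM was 54.1%, against 3.68% from counting alone. Of features with a mean of at least 1000 CPM, RNY4 (18.6%), RNY5 (21.2%), the 5.8S feature (25.1%), RNY1 (28.4%) and MIR92A2 (34.4%) had the lowest CV. The 5.8S feature is itself rRNA, the largest part of the total that CPM divides by, so its CV depends on that scaling. The group of 5 tRNA-length features (149%), MT-TE (115%), the tRNA-length features 23854 (101%) and 23827 (97.1%) and MT-TY (92.1%) had the highest. CPM was lowest in exosome 5 for 514 of the 669 features, and its rRNA share was the highest.

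Of all 669 features, exosome 1 was highest for 15.2%, exosome 3 for 34.7% and exosome 4 for 34.7%. Near-identical features, 98 of them of tRNA length, enter these counts and those below separately. Exosome 3 was highest for 104 of 131 C/D snoRNAs, 27 of 38 H/ACA snoRNAs and 23 of 25 mitochondrial features. Exosome 4 was highest for 140 of 237 tRNA-length features and 67 of 144 miRNAs, and exosome 1 for 51 of those miRNAs. Exosome 2 was lowest for all 4 vault RNAs and for 47 of 144 miRNAs, against 86 of the 669 features, while exosome 5 was lowest for 82 of these miRNAs. Scaled to reads without rRNA, exosome 3 was still highest for 92 of the C/D snoRNAs and 22 of the mitochondrial features. Exosome 4 was then highest for 33 of the miRNAs and exosome 1 for 64. Over all features outside rRNA, exosome 1 was highest for 119, exosome 3 for 208 and exosome 4 for 162 on this scale. For exosome 4 the miRNAs were thus near its share over all features.

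**Figure D4:**
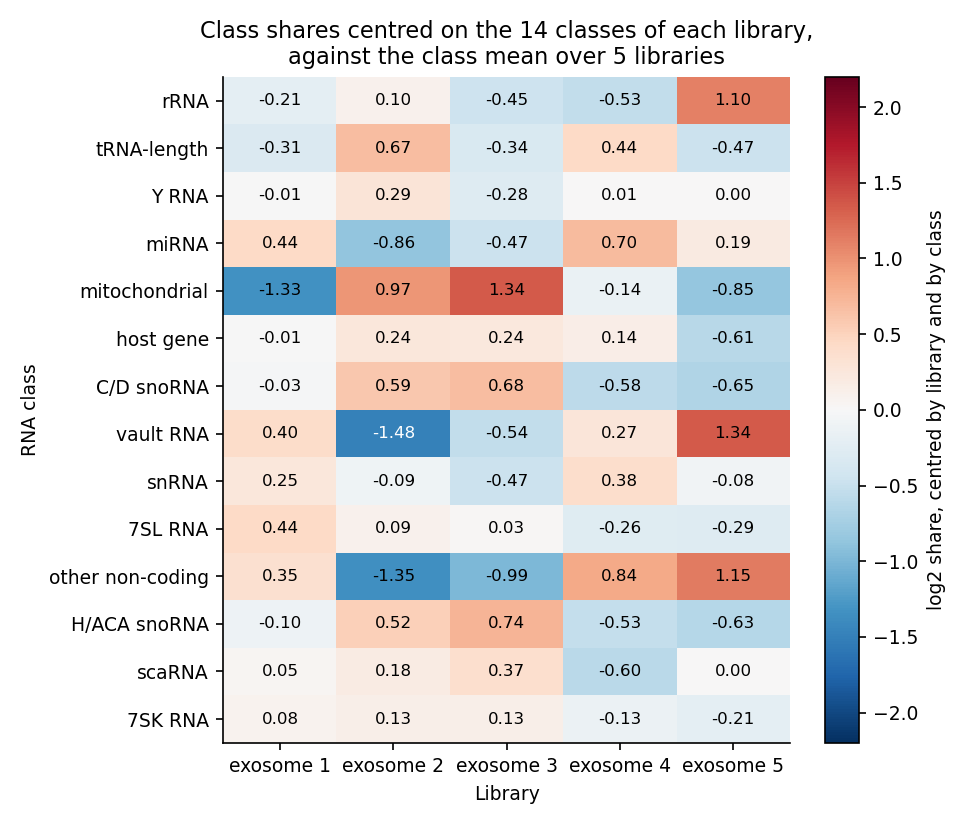
Share of each class (log2) in each exosome library, centred on the mean of the 14 classes of that library and then on the class's mean over libraries. C/D and H/ACA snoRNAs and mitochondrial RNA are high in exosome 2 and 3, and vault RNA and other non-coding genes are low there.

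Which classes varied together was measured by the SD, over the 5 libraries, of the log2 ratio of their reads, which does not depend on the scaling. No correlation is given, since 5 libraries are too few. Over the 91 pairs of 14 classes the median SD was 0.79. The steadiest pair was C/D with H/ACA snoRNA: their ratio was 23.5, 23.3, 21.4, 21.4 and 21.9 (SD 0.06), while both shares ranged over 4.63-fold and 4.75-fold. The order of the libraries was the same for both, exosome 3, 2, 1, 4 and 5. Their SD was the lowest of all pairs, and second lowest without exosome 1. It was 0.13 without each class's most abundant feature, still the lowest of 78 pairs, and 0.18 between the medians of their features, second of 91.

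The reads of C/D snoRNAs over those of snoRNA host genes were also steady, at 0.946, 1.05, 1.16, 1.08 and 1.05 (SD 0.11). SNORD2 and SNHG1 had the same SD (0.11), with a ratio from 0.512 to 0.619, and SNHG1 was the feature of another class most like SNORD2 among 57. Since snoRNAs in these spans mostly have no feature of their own, it cannot be told from the counts how many host gene reads are snoRNA reads. scaRNAs followed C/D snoRNAs less closely, with a ratio from 30.2 in exosome 5 to 63.2 in exosome 2.

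The next steadiest pairs all held 7SK RNA: with 7SL RNA (SD 0.20), host genes (0.25), Y RNAs (0.26) and scaRNAs (0.28). Each was steadier still without 1 library, a different one each time, picked as the one whose removal lowered the SD most. Removing the most extreme of 5 values always lowers an SD. Without exosome 1 the SD of 7SL to 7SK was 0.04. Without exosome 5 that of host genes to 7SK was 0.15, without exosome 3 that of Y RNA to 7SK was 0.13, and without exosome 4 that of scaRNA to 7SK was 0.13. The 8-feature tRNA-length group was most like RNY5 (SD 0.30) and RNY4 (0.36).

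The least steady pairs, ranked 85 to 91 of 91, set mitochondrial RNA and snoRNAs against vault RNA, miRNAs and other non-coding genes. Those ranked 80 to 84 lay outside this pattern, such as rRNA with mitochondrial RNA (SD 1.52) and tRNA-length features with vault RNA (SD 1.46). Mitochondrial over vault reads were 2.02, 36.7, 24.7, 5.03 and 1.46 (SD 2.09), and mitochondrial over other non-coding reads had the highest SD of all pairs, 2.16. miRNA over mitochondrial reads were 7.92, 0.649, 0.660, 4.16 and 4.78 (SD 1.70). miRNA over C/D snoRNA reads, ranked only 74, were 5.60, 1.47, 1.81, 9.81 and 7.24 (SD 1.23). In each of these ratios exosome 2 and 3 lay on one side and exosome 1, 4 and 5 on the other, without overlap. This is the same split as in the ratio of 28S to 18S RNA and of MIR148A to MIR21. MIR148A was most like VTRNA1-1 among 50 features of other classes, though with an SD of 0.65. Its reads over those of all other miRNAs were 0.491, 0.192, 0.224, 0.975 and 1.30. No label separates exosome 2 and 3 from the rest, and the split was seen in these values and not tested.

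**Figure D5:**
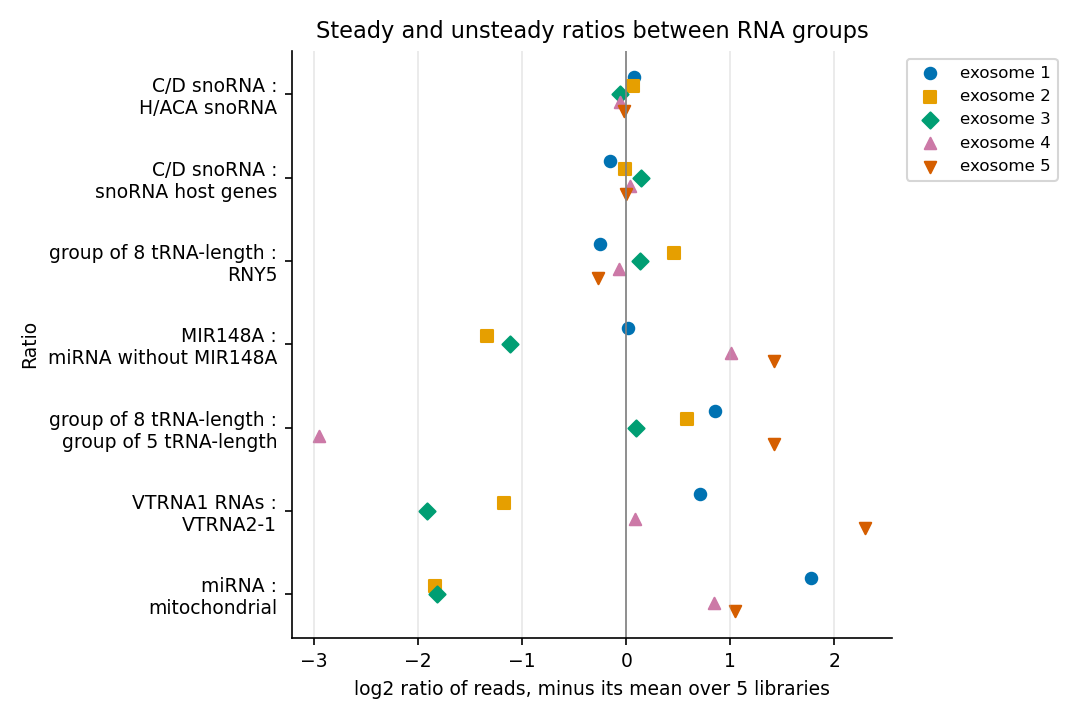
log2 ratio of reads between RNA groups in each exosome library, minus its mean over the 5 libraries. The C/D to H/ACA snoRNA ratio stays within a range of 21.4 to 23.5, whereas miRNA over mitochondrial RNA is low in exosome 2 and 3 (0.649 and 0.660) and the ratio of the groups of 8 and 5 tRNA-length features is low in exosome 4 (1.11).

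Marker lists for B cells and other tissues were read as a description, which does not decide the cell of origin. Of 13 genes listed for B cells and chronic lymphocytic leukaemia, 8 have a feature, and 7 of these were found in all 5 libraries. Their summed level was 31968, 14606, 25935, 38796 and 9936 CPM, mostly MIR21 and MIR155HG. MIR181A2, a miRNA of lymphocyte development, had 389, 319, 551, 629 and 256 CPM. MIR150, high in mature resting lymphocytes, had 66.5, 23.2, 10.4, 7.36 and 18.7 CPM (it was chosen after its values were seen). MIR34A, the listed gene not found in all 5 libraries, had 0.148, 0.804, 4.78, 15.4 and 0 CPM.

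The B-cell sum rests on MIR21, which is widely expressed, and on MIR155HG, and the lists differ in how many features were measured. In mean level MIR150 (25.2 CPM), MIR16-1 (34.9 CPM) and MIR34A (4.22 CPM) lay below MIR122 of the liver list (62.8 CPM). The other measured B-cell members were above it. Lists for other tissues stayed far below the B-cell sum, but not below its lowest members. Their summed levels lay between 24.0 and 160 CPM for liver, 24.3 and 77.3 for red cells (MIR486 alone), 13.6 and 82.7 for myeloid cells and platelets, 4.76 and 44.8 for stroma, 11.8 and 36.9 for epithelium, 36.7 and 70.3 for gut and 0.712 and 3.27 for muscle. The neural list reached 176 to 450 CPM through MIR128-1 and MIR128-2, which are not confined to neurons. MIR9-1 had 8.60, 12.3, 32.2, 38.9 and 1.90 CPM, with nearly the same counts for MIR9-3, and both were found in all 5 libraries, while MIR124-2 and MIR124-3 had no read. MIR122, the hepatocyte miRNA, had 24.0, 38.3, 160, 54.7 and 36.7 CPM. It was highest in exosome 3, as were MIR143 (37.9 CPM) and MIR126 (75.5 CPM). Calf serum was in the culture and these miRNAs are alike across mammals. Their origin was not tested.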

How the data were processed

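Small RNA of 5 exosome preparations was analysed, with 3 cell libraries left out. Per the submitters' processing notes, reads passed through cutadapt 1.1, STAR, featureCounts and DESeq2 1.8.2 with the builds GRCh37, hg19 and hs37d5. The deposited values are raw counts per feature, per the file headers, with no normalization. How reads matching several features were treated is not given in the sources used here.

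Features were put into 14 classes by symbol, chromosome and number. A host gene is a feature over 200 nt whose RefSeq span (GRCh38, 1993 of 2085 symbols matched) holds a snoRNA or miRNA gene. CPM (counts per 1000000) divides each count by the library's counted reads. Library totals ran from 23353820 to 32436286. With 1 group, no test was run and values are mean ± SD over 5 preparations. Features of a class whose counts differed by no more than 2% or 5 reads in every library (mean of at least 100 reads) were near-identical: 129 features in 41 groups.

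Named features were the 5 most abundant of each class by reads and per length (15 miRNAs), all Y, vault, 7SL and 7SK RNAs, up to 4 of each of 23 lists, the 5 with the lowest and highest CV above 1000 CPM, the features most like each class's leader, and 5 found in 1 library only. The features and lists were chosen with earlier results of these data known. The class and ratio code was checked on simulated data. Alternatives were other read minimums, thinning, edgeR 4.0.16 TMM scaling (R 4.3.3), totals without rRNA, near-identical features once, each leading feature out and each library out. Python 3.11.15, numpy 2.4.6 and pandas 2.3.3 were used.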

Additional observations from a re-analysis of the deposited data

Results flagged for a closer look

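In 14 class shares and 123 named features, with near-identical ones counted once, 1 library lay far from the other 4 in 21 cases, by a gap to the nearest over 0.71 of the whole range. Chance flags about 1 in 20 such groups, but several features were chosen for a high spread or for reads in 1 library only, so the number of cases cannot be read against that rate. No cause was tested. The Y RNA share was low in exosome 5 (10.2%), although without rRNA it was the highest there (36.8%), and in exosome 5 MIR30C1 (15.3 CPM) and MIR30C2 (12.8 CPM) were low too. Exosome 3 was high for MT-TE (38420 CPM), SNORA34 (245 CPM), SNORD116-16 (50.7 CPM), MIR122 (160 CPM) and MIR143 (37.9 CPM). Exosome 1 was high for RNU5E-1 (1659 CPM), RNU5D-1 (74.1 CPM), MIR128-1 (255 CPM), MIR128-2 (177 CPM) and MIR192 (63.6 CPM). Exosome 4 was high for the group of 5 tRNA-length features led by 7597 (13520 CPM), RNU11 (935 CPM) and MIR208B (0.514 CPM). The other 5 had reads in 1 library only: MIR609 (1.11 CPM) and RP11-104D21.3 (0.814 CPM) in exosome 4, MIR4782 (0.952 CPM) and 7591 (0.842 CPM) in exosome 5, and MIR548AW (0.519 CPM) in exosome 1.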

How the results depend on the processing

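Without rRNA the mean shares became 35.7% for tRNA-length features, 30.9% for Y RNA, 14.6% for miRNA, 7.12% for mitochondrial RNA, 5.76% for host genes, 3.53% for C/D snoRNA, 1.12% for vault RNA, 0.642% for snRNA, 0.216% for 7SL RNA, 0.104% for other non-coding genes, 0.159% for H/ACA snoRNA, 0.0723% for scaRNA and 0.0506% for 7SK RNA, as the smaller denominator gives. With the most abundant feature of each class left out they were 32.9% for tRNA-length features, 7.98% for Y RNA, 3.13% for C/D snoRNA, 0.480% for snRNA and 0.0764% for other non-coding genes, and the other 8 moved by less than 1 SD. With near-identical features counted once, tRNA-length features fell from 18.2% to 4.44%. No class share moved by 1 SD when any 1 library was left out. With 5 libraries such a move cannot occur, so this does not show steadiness. Without exosome 3 the mitochondrial mean fell from 3.73% to 2.47%, the only class mean to move by over 1.5 times.

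With at least 50 reads asked for, the features found in all 5 numbered 202 of tRNA length, 132 miRNAs, 28 H/ACA snoRNAs and 8 other non-coding genes. With at least 1 read they numbered 327 miRNAs and 102 other non-coding genes. Thinned to equal totals without rRNA, 20 other non-coding genes remained. No count moved by over 1.5 times when 1 library was left out. Of the 5 leading tRNA-length features, all of 1 group, 1 was left when copies were counted once. Of the 5 leading mitochondrial features per length, 3 stayed by reads.

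The SD of the C/D to H/ACA log2 ratio was 0.13 with leading features left out and 0.18 between class medians. Between class medians the SD was 0.12 for host genes to 7SK RNA and 0.43 for scaRNA to 7SK RNA. Leaving out 1 library, the SD ran from 0.039 to 0.23 for 7SL to 7SK, 0.15 to 0.29 for host genes to 7SK, 0.13 to 0.30 for Y RNA to 7SK and 0.13 to 0.33 for scaRNA to 7SK. No paired analysis was possible because there is 1 group and no comparison. TMM scaling moved none of 144 named levels by 1 SD. Leaving out 1 library did not either, but with 5 libraries that outcome was fixed in advance. Scaling to reads without rRNA moved 121 of the named levels and left 18 within 1 SD. The rRNAs have no value there. Depth limits the rare features: 3 reads came to at most 0.128 CPM, and PCR copies were counted as reads.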
